A study of Mus musculus with 15 samples.

Results

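C/EBP epsilon was set against C/EBP delta in NIH 3T3 cells, an established line of mouse embryonic fibroblasts. The comparison covers 6 of the series' 15 expression arrays, chosen by sample title: 3 from cells carrying a human C/EBP epsilon cDNA (CEBPE) and 3 from cells carrying a human C/EBP delta cDNA (CEBPD). A further 3 arrays from cells with the empty plasmid (vector) give a level for both. The remaining 6 arrays, of cells with C/EBP alpha or C/EBP beta, entered the scaling, the floor, the filter and the estimate of the spread. Their means were read only for some cholesterol synthesis genes. The plasmids, called pMTe, pMTd and pMT in the labels, drive their insert from a zinc-inducible metallothionein promoter. All groups were selected with G418 and given zinc sulphate for 16 h before total RNA was taken, so zinc and selection are common to CEBPE, CEBPD and vector. The labels call the transfectants polyclonal and the cultures triplicate clones, without saying whether the 3 cultures of a group go back to independent transfections. The p-values therefore measure the spread between these cultures only. Protein was screened by Western blot per the labels, but its amount is not analysed here, so the identity of the factor and the amount of it that was made cannot be told apart.

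C/EBPs are transcription factors of the basic leucine zipper class, which bind DNA as dimers with each other and with related proteins. C/EBP delta is known as an early factor of fat cell differentiation and of the acute phase and inflammatory responses. C/EBP epsilon is known from the late steps of granulocyte development, where it turns on genes of the secondary granules. Fibroblasts are not its usual setting. The question was which genes separate these relatives when either is expressed in the same fibroblast.

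Signals are in the arbitrary linear units of the array software, after every array was divided by its median and set to a common one. Before this, medians of the 6 arrays ran from 994.6 to 1137.05 units. On the log2 scale the CEBPE arrays correlated with each other at 0.929 to 0.951, the CEBPD arrays at 0.942 to 0.965, and CEBPE with CEBPD arrays at 0.898 to 0.930, across 6963 probe sets. Probe sets are not independent replicates, so these values describe the arrays only. All 14 fibroblast markers were on the array, and their summed signal was 141408 to 186425 units in CEBPE, against 117887 to 123070 units in CEBPD. Sums over 11 leukocyte markers were 7451 to 8822 units in CEBPE, against 10545 to 11599 units in CEBPD. Sums over 5 endothelial markers were 2645 to 3426 units in CEBPE, against 4230 to 5469 units in CEBPD. Epithelial and muscle markers overlapped between the groups. Vector sums were 117772 to 154624 units (fibroblast), 9428 to 11916 units (leukocyte) and 5063 to 6794 units (endothelial). Without Dcn and Col3a1 the fibroblast sums of CEBPE and CEBPD overlapped, as did the endothelial sums without Vwf. The leukocyte sums without Cd68 did not overlap. The values carry no detection calls, so which of these markers were truly absent was not tested.

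The probe sets cannot check the labels directly, because the introduced cDNAs are human and the probes are of mouse sequence. The mouse C/EBP genes were read as a family instead. Endogenous Cebpd read 4784, 6843 and 4937 units on the CEBPE arrays, 4454, 6469 and 5439.6 units on the CEBPD arrays and 5498, 8136 and 6437 units on the vector arrays (log2 difference 0.01 ± 0.19, adjusted p = 0.976, SE of the limma fit). Cebpb, a relative induced early in fat cell differentiation, read 9899 ± 3290.3 units in CEBPE and 10424 ± 2372 units in CEBPD (SD, n = 3 each, as for all such means) (log2 difference -0.11 ± 0.33, adjusted p = 0.871). For both genes the CEBPE and CEBPD arrays overlapped. Cebpa was under the signal filter. Cebpg, a short family member that lacks an activation domain, averaged 2162 ± 336 units in CEBPE and 3942 ± 755 units in CEBPD and fell in CEBPE (log2 difference -0.86 ± 0.16, adjusted p = 0.00256). Ddit3, also called CHOP, a stress-induced partner of the family, averaged 2423 ± 65.1 units in CEBPE and 10075 ± 1058 units in CEBPD and fell in CEBPE (log2 difference -2.05 ± 0.17, adjusted p = 6.61e-07). Mouse Cebpe was not analysed here.

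CEBPE and CEBPD differed at 572 of 6963 probe sets tested (8.21%) at an adjusted p of 0.05 or less. Of these, 265 (3.81%) were higher in CEBPE and 307 (4.41%) were lower. Large differences lay mainly on the lower side: 123 probe sets (1.77%) were called lower in CEBPE by over 2-fold, against 49 (0.704%) called higher by over 2-fold. Read as genes, with the brightest tested probe set standing for each, 451 of 5338 were called (8.45%): 217 (4.07%) rose in CEBPE and 234 (4.38%) fell. Over 4-fold, 3 genes rose and 27 fell, and over 8-fold 0 rose and 8 fell. All 451 genes called had CEBPE arrays that did not overlap the CEBPD arrays, as did 27.3% of all probe sets. The median difference over all genes was 0.08 on the log2 scale. Array weights gave 1506 called, 814 higher and 692 lower, and leaving out the arrays numbered 1 in all 5 groups gave 365. The number called was 342 without CEBPD array 3, 343 without CEBPE array 3 and 381 without CEBPD array 2. The count higher was 113 without CEBPE array 2, 130 without CEBPD array 3, 135 without CEBPE array 3 and 160 without CEBPD array 1, and the count lower was 204 without CEBPD array 2. Set against vector, the same fit called 1134 probe sets (16.3%) for CEBPE, or 750 without vector array 3, and 25 (0.359%) for CEBPD.

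**Figure D1:**
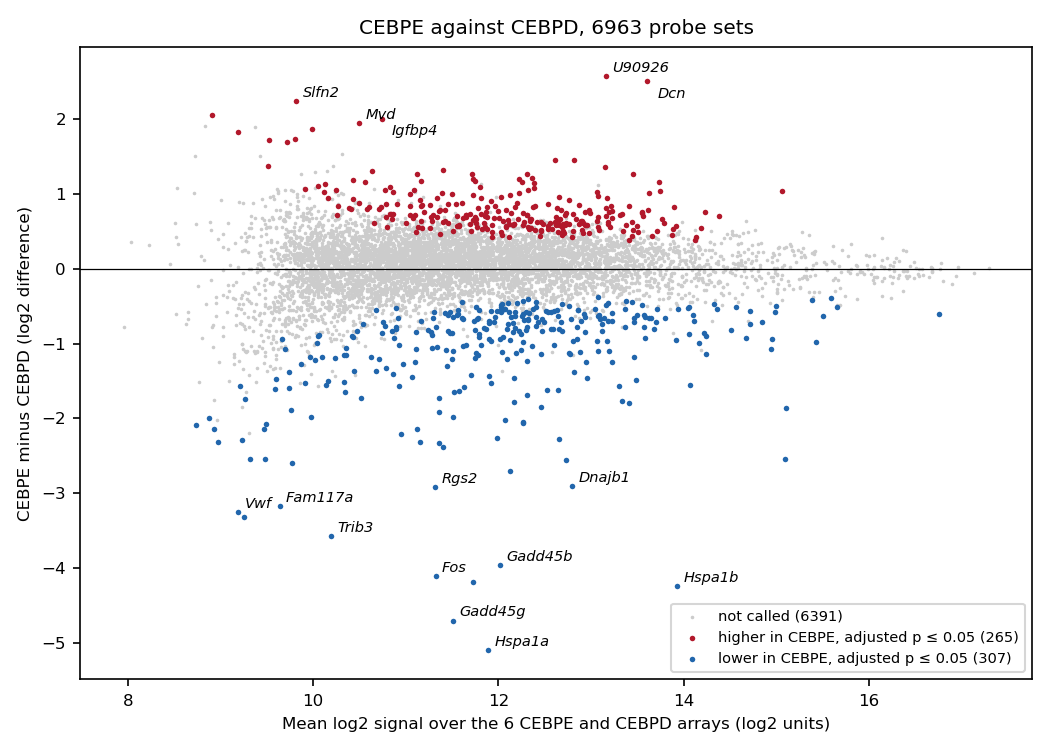
Each point is 1 of 6963 probe sets; the x axis is the mean log2 signal over the 6 arrays and the y axis the CEBPE minus CEBPD difference in log2 units. The 265 red points (higher in CEBPE) reach 2.57 at U90926 and the 307 blue points (lower in CEBPE) reach -5.09 at Hspa1a, with grey points for the 6391 probe sets not called.

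The largest fall in CEBPE was in a gene of the heat shock response. Its chaperones bind unfolded proteins and are turned on by heat, heavy metals and other stress, and all the cultures here had been given zinc. Hspa1a, an inducible 70-kDa chaperone, read 316, 713 and 1221 units on the CEBPE arrays, 20362, 23488 and 22924 units on the CEBPD arrays and 25584, 29685 and 27158 units on the vector arrays. The CEBPE cultures stood apart from CEBPD and vector, whose ranges lay close together (34.2-fold lower than CEBPD, log2 difference -5.09 ± 0.32, adjusted p = 1.93e-08). Hspa1a averaged 1649 ± 371 units with C/EBP alpha and 5500 ± 400 units with C/EBP beta, and CEBPE against these was not tested. Its near-identical copy Hspa1b read 3095, 3667 and 4039 units in CEBPE, 60223, 72441 and 71305 units in CEBPD and 74069.9, 86386 and 79416 units in vector (log2 difference -4.24 ± 0.14, adjusted p = 9.56e-12). Probes of the pair can take up each other's RNA, so the 2 genes are not separate evidence. Dnajb1, a co-chaperone that stimulates the 70-kDa proteins, read 1880.1, 3194 and 2924 units in CEBPE and 18258, 20605 and 19589.6 units in CEBPD (log2 difference -2.90 ± 0.20, adjusted p = 4.88e-08). Cryab, a small heat shock protein, averaged 1865 ± 236 units in CEBPE and 8922 ± 742 units in CEBPD (log2 difference -2.26 ± 0.15, adjusted p = 3.24e-08). Of 23 heat shock genes tested, 13 fell, 0 rose and 10 were not called, where 4.38% of all genes fell and 4.07% rose. Their median difference was -0.63, against 0.08 over all genes. The 13 spanned 1.43- to 34.2-fold, from the constitutive Hspa8 to Hspa1a, with Hspd1, Hspb8, Bag3, Stip1, Hsp90aa1, Hspe1, Chordc1 and Hsph1 between. The 5 chaperonin subunits on the list (Cct2, Cct3, Cct4, Cct5 and Tcp1) were not called. Zfand2a, a proteasome-associated zinc finger protein induced by arsenite, averaged 1788 ± 445 units in CEBPE and 11458 ± 1362 units in CEBPD (log2 difference -2.70 ± 0.19, adjusted p = 6.57e-08); a dimmer probe set of it gave -1.74. These are bulk samples, in which fewer cells expressing a gene and less of its RNA per cell cannot be told apart.

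**Figure D2:**
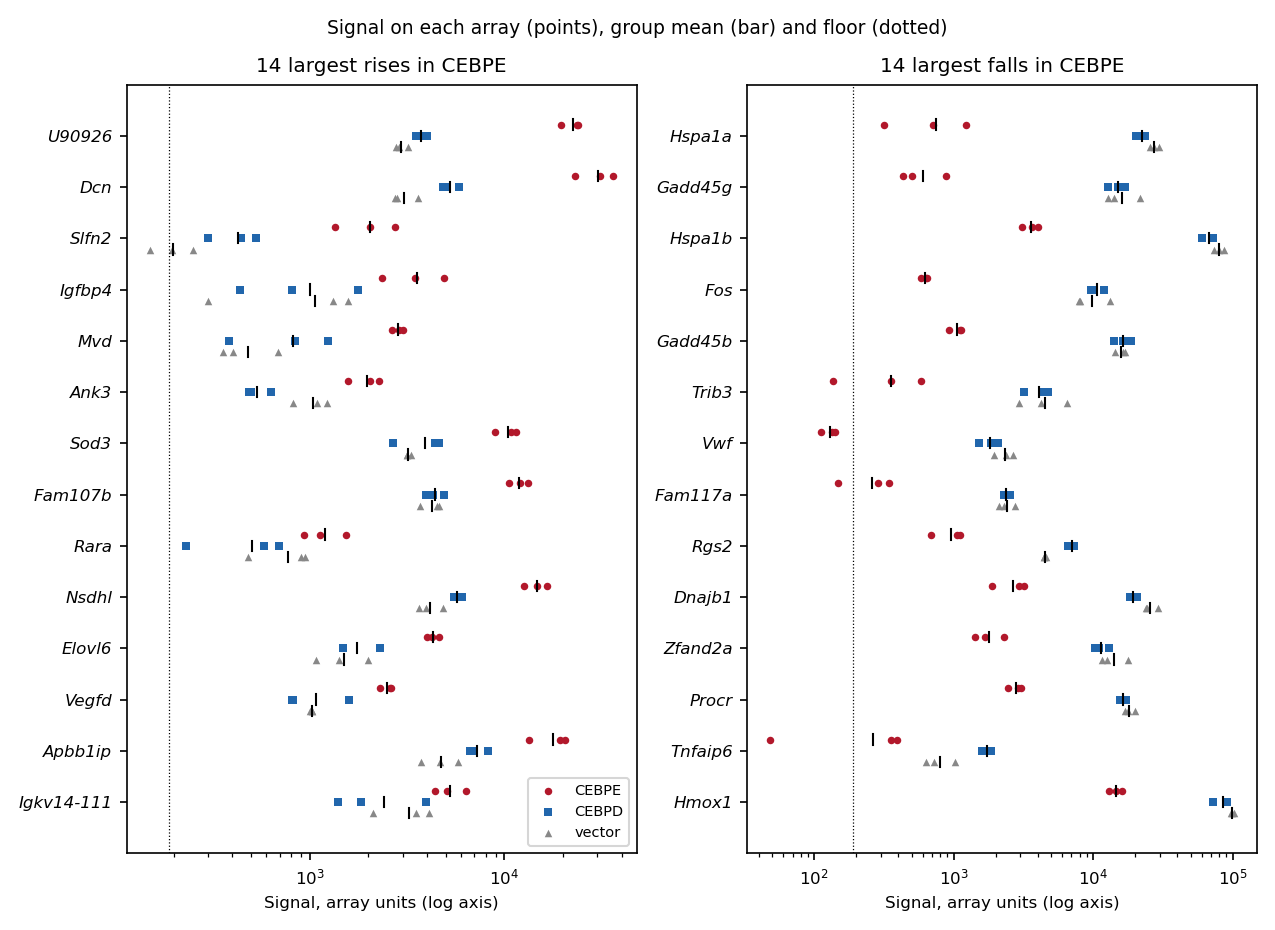
Signal on a log axis (array units) for the 14 largest rises in CEBPE (left) and the 14 largest falls (right), with red circles for CEBPE, blue squares for CEBPD and grey triangles for vector; bars are group means over 3 arrays and the dotted line is the floor of 189.652 units. The genes were picked among those called whose 3 CEBPE arrays do not overlap the 3 CEBPD arrays, so that separation is set by the choice. The falls run from Hspa1a (-5.09) to Hmox1 (-2.54).

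The Gadd45 genes fell together with them. They encode small stress proteins that act in growth arrest and DNA repair. Gadd45g read 430.4, 499.9 and 879 units on the CEBPE arrays, 15157, 16950.2 and 12870.5 units on the CEBPD arrays and 14024, 21866 and 12809 units on the vector arrays (26-fold lower in CEBPE than in CEBPD, log2 difference -4.70 ± 0.27, adjusted p = 7.89e-09). It averaged 745 ± 144 units with C/EBP alpha and 3078 ± 967 units with C/EBP beta, and CEBPE against these was not tested. Gadd45b read 1113, 924 and 1125 units in CEBPE and 14144, 18676 and 16512 units in CEBPD (log2 difference -3.96 ± 0.23, adjusted p = 7.89e-09), and a second probe set gave -4.19. Gadd45a changed less, with 7513 ± 542 units in CEBPE and 17021 ± 2089 units in CEBPD (log2 difference -1.17 ± 0.16, adjusted p = 1.43e-04). No CEBPE array reached a CEBPD array for any of the 3, as held for all genes called. Mdm2, the ligase that limits p53, averaged 5942 ± 823 units in CEBPE and 12617 ± 745 units in CEBPD (log2 difference -1.09 ± 0.15, adjusted p = 1.39e-04). Of 13 growth arrest and p53 target genes tested, 5 fell (the 4 above and Cdkn1a, the p21 inhibitor of cyclin-dependent kinases), 2 rose (Sesn1 and Cdkn2c; 1 without CEBPE array 2 or CEBPD array 3) and 6 were not called. Over all genes 4.38% fell and 4.07% rose. The list's median difference was -0.43.

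Some immediate early genes, a class that cells transcribe within minutes of a signal, fell as well. Fos, a subunit of the AP-1 transcription factor, read 629.6, 645 and 581 units on the CEBPE arrays, 9734, 12074 and 10211 units on the CEBPD arrays and 8119, 13321 and 7913 units on the vector arrays. The 3 CEBPE values lay within a narrow band far under every CEBPD and vector value (17.2-fold lower than CEBPD, log2 difference -4.10 ± 0.21, adjusted p = 1.78e-09). Fos averaged 819 ± 205 units with C/EBP alpha and 1951 ± 316 units with C/EBP beta, and CEBPE against these was not tested. Dusp1, a phosphatase that switches off MAP kinases, read 5665, 6579 and 5431 units in CEBPE and 18289, 22599 and 20178 units in CEBPD (log2 difference -1.79 ± 0.11, adjusted p = 2.44e-08). Btg2, an antiproliferative gene, averaged 2833 ± 223 units in CEBPE and 9126 ± 538 units in CEBPD (log2 difference -1.69 ± 0.13, adjusted p = 2.35e-07). Ier2, an immediate early gene of the nucleus, averaged 4979.8 ± 1671 units in CEBPE and 13258 ± 1709 units in CEBPD (log2 difference -1.47 ± 0.24, adjusted p = 7.36e-04). Across the list 9 of 29 genes tested fell, 0 rose and 20 were not called, where 4.38% of all genes fell and 4.07% rose, and the median difference was -0.42. Junb, Klf4, Nr4a2, Ccn1 and Ier3 made up the 9. Egr1, Jun, Myc and Atf3, members that serve as textbook examples of the class, were among those not called.

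**Figure D3:**
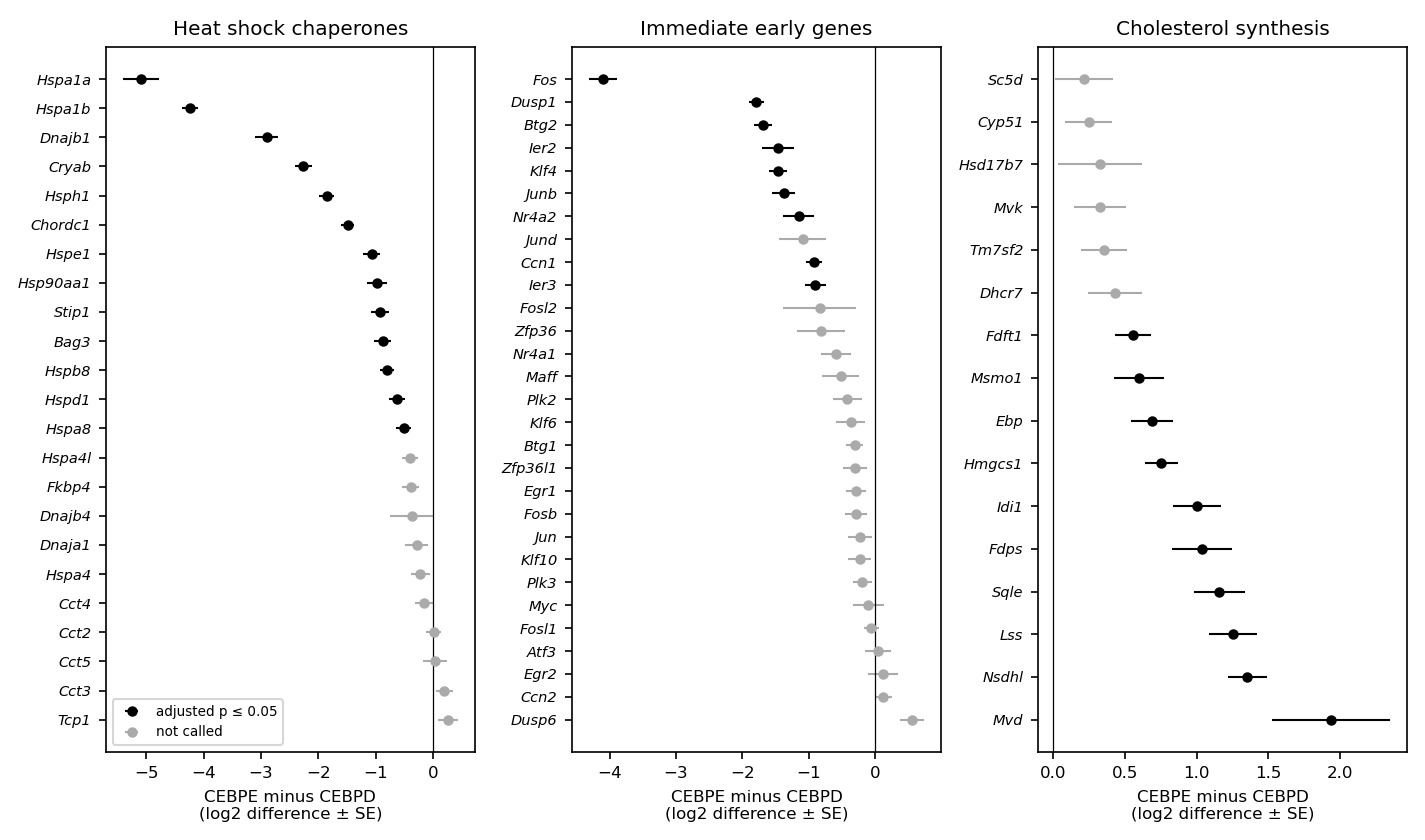
CEBPE minus CEBPD difference in log2 units (points) with its SE (lines) for every tested gene of the heat shock (23), immediate early (29) and cholesterol synthesis (16) lists; black marks an adjusted p of 0.05 or less and grey marks genes not called. The left panels extend to -5.09 (Hspa1a) and -4.10 (Fos), and all 16 points of the right panel lie above 0.

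Some genes of the integrated stress response, in which phosphorylated eIF2 slows translation and raises ATF4 targets, fell in CEBPE. Trib3, a pseudokinase induced by ATF4 and CHOP, read 136, 579 and 356 units in CEBPE, 3194, 4754 and 4283 units in CEBPD and 2929, 6477 and 4202 units in vector (log2 difference -3.57 ± 0.35, adjusted p = 3.92e-06, with 1 CEBPE array raised to the floor). Ppp1r15a, the GADD34 subunit that directs eIF2 dephosphorylation, read 2479, 3109 and 3233 units in CEBPE and 13107, 15654 and 13841 units in CEBPD (log2 difference -2.28 ± 0.15, adjusted p = 4.25e-08). Ddit3, given above with its family, belongs to the same group. Dnajb9, a chaperone of the endoplasmic reticulum, averaged 1386 ± 376 units in CEBPE and 5156 ± 850.1 units in CEBPD (log2 difference -1.92 ± 0.26, adjusted p = 1.11e-04), but a dimmer probe set was not called (-0.76, adjusted p = 0.118). Asns and Psat1, enzymes of asparagine and serine synthesis, completed the 6 of 25 tested genes that fell. Xbp1, a transcription factor of the unfolded protein response, was the 1 that rose, at 1.53-fold, and it was not called without CEBPD array 3 (3 genes rose without CEBPE array 1). The list's median difference was -0.10, and over all genes 4.38% fell and 4.07% rose.

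Hmox1, which breaks down haem and responds to metals and oxidants, read 14515, 12969 and 16226 units on the CEBPE arrays, 91209, 72911 and 90778 units on the CEBPD arrays and 99003, 102191 and 97965 units on the vector arrays (log2 difference -2.54 ± 0.18, adjusted p = 6.70e-08). CEBPE cultures held less than every CEBPD culture. Srxn1, which repairs oxidised peroxiredoxins, also fell, with 3116 ± 467 units in CEBPE and 5810.3 ± 391 units in CEBPD (log2 difference -0.91 ± 0.17, adjusted p = 0.002), but a dimmer probe set of it gave 0.25 (adjusted p = 0.638). Gsr, glutathione reductase, and Gsta4, a glutathione transferase, rose by 1.41- and 1.65-fold, and the other 18 of 22 antioxidant genes were not called. Over all genes 4.07% rose and 4.38% fell. Gsr lost its call without CEBPE array 2 or 3 or CEBPD array 1, 2 or 3 (adjusted p up to 0.133) and under 2 of 14 other settings (up to 0.0671). Gsta4 lost its call without any 1 of the 6 arrays (adjusted p up to 0.165) and under 4 of 14 other settings (up to 0.138). It averaged 2365 ± 250 units in CEBPE, 1431 ± 176 units in CEBPD and 2175 ± 347 units in vector. Neither CEBPE minus vector (log2 difference 0.13, adjusted p = 0.749) nor CEBPD minus vector (-0.60, adjusted p = 0.548) was called for Gsta4. Metal response genes as a list were not called: of 8 tested, 0 passed limma's threshold, and at most 1 passed in an alternative. Of the 8, 1 was lower at an unadjusted p under 0.05, a share not given here for all genes. The closest were Slc30a1, the zinc exporter of the cell surface (log2 difference -0.46 ± 0.18, adjusted p = 0.127), and Mt3 (log2 difference -0.39 ± 0.21, adjusted p = 0.281). Mt1 and Mt2, the main zinc-binding metallothioneins, were looked up after their values were seen because the plasmids use a metallothionein promoter. Mt1 read 93292, 137900.0 and 139265 units in CEBPE and 131306, 134684 and 123915 units in CEBPD, and Mt2 read 97113, 119851 and 124889 units in CEBPE and 133096, 126880.0 and 131938 units in CEBPD. The groups overlapped for Mt1 (log2 difference -0.10 ± 0.19, adjusted p = 0.809). The CEBPE values of Mt2 lay just under those of CEBPD, and the difference was not called (log2 difference -0.21 ± 0.16, adjusted p = 0.476).

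The other large falls did not belong to these stress lists. Rgs2, which speeds the switching off of G proteins, read 1055, 687 and 1114 units in CEBPE, 6654, 7103 and 7339.6 units in CEBPD and 4618, 4468 and 4466 units in vector (log2 difference -2.92 ± 0.17, adjusted p = 7.89e-09). Procr, the endothelial protein C receptor, read 2467, 3056 and 2893 units in CEBPE and 15594, 17296 and 16406 units in CEBPD (log2 difference -2.55 ± 0.12, adjusted p = 7.72e-10). Both were picked among genes whose CEBPE and CEBPD arrays do not overlap, and their gap was wide. Tnfaip6, a hyaluronan-binding protein of inflammation, read 389.6, 354 and 48.6 units in CEBPE, 1843, 1760.0 and 1601 units in CEBPD and 1030.1, 633 and 722 units in vector (log2 difference -2.54 ± 0.36, adjusted p = 1.96e-04, with 1 CEBPE array at the floor). Every CEBPD array lay above every CEBPE and vector array, but CEBPD minus vector was not called (log2 difference 1.15, adjusted p = 0.391). Fam117a averaged 259 ± 101 units in CEBPE and 2393 ± 118 units in CEBPD (log2 difference -3.17 ± 0.35, adjusted p = 1.41e-05, with 1 CEBPE array at the floor). Vwf, the von Willebrand factor of endothelial cells and platelets, lay under the floor on all 3 CEBPE arrays and read 1531, 2083 and 1849.7 units in CEBPD, at least 9.53-fold lower in CEBPE (adjusted p = 1.25e-04). Without Vwf the summed signal of the other 4 endothelial markers was 2533 to 3292 units in CEBPE and 2700 to 3386 units in CEBPD, which overlap. Over the 14 largest falls the CEBPE minus CEBPD difference ran from -5.09 to -2.54. CEBPE minus vector ran from -5.40 to -1.39 and CEBPD minus vector from -0.40 to 1.15, and these comparisons share arrays. For all 14 the means with C/EBP alpha and with C/EBP beta also lay under the CEBPD mean, which was not tested.

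Among rises in CEBPE, U90926, a transcript for which no role is given here, came first. It read 19591, 23644 and 23894 units on the CEBPE arrays, 3739.8, 3508 and 3999.8 units on the CEBPD arrays and 2874, 3205 and 2788 units on the vector arrays (5.95-fold higher; log2 difference 2.57 ± 0.12, adjusted p = 7.72e-10). Dcn, decorin, a small proteoglycan that binds collagen fibrils, read 23176, 36280.2 and 30856 units in CEBPE, 5099, 5865 and 4818 units in CEBPD and 2750.2, 3582 and 2823 units in vector (5.65-fold higher than CEBPD; log2 difference 2.50 ± 0.17, adjusted p = 3.98e-08). Both were picked among genes whose arrays do not overlap, and the lowest CEBPE culture lay well over the highest CEBPD culture. Slfn2, a schlafen protein tied to the quiescence of T cells in mice, read 1350.1, 2753 and 2036 units in CEBPE, 533, 302 and 446 units in CEBPD and 151, 197 and 251 units in vector (log2 difference 2.24 ± 0.41, adjusted p = 0.00222), and its dimmer probe set gave 1.69 (adjusted p = 0.0314). Ank3, an ankyrin that ties membrane proteins to spectrin, read 1579, 2264 and 2050.2 units in CEBPE, 498, 486 and 631 units in CEBPD and 1224, 823 and 1091 units in vector (log2 difference 1.86 ± 0.23, adjusted p = 5.53e-05). Vector lay between the 2 factors for Ank3, above every CEBPD array and under every CEBPE array. CEBPD minus vector was not called there (log2 difference -0.95, adjusted p = 0.139). Sod3, the secreted superoxide dismutase, averaged 10415 ± 1314 units in CEBPE and 3897 ± 1064 units in CEBPD (log2 difference 1.45 ± 0.18, adjusted p = 6.87e-05). Fam107b averaged 11930.3 ± 1285 units in CEBPE and 4377 ± 475 units in CEBPD (log2 difference 1.45 ± 0.14, adjusted p = 2.18e-06). Apbb1ip, a Rap1 effector that activates integrins in leukocytes, averaged 17676 ± 3789 units in CEBPE and 7267 ± 836 units in CEBPD (log2 difference 1.26 ± 0.18, adjusted p = 1.88e-04). Vegfd, a growth factor for lymphatic vessels, averaged 2501 ± 168 units in CEBPE and 1072 ± 448 units in CEBPD (log2 difference 1.30 ± 0.22, adjusted p = 0.00111).

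Elovl6, which elongates saturated fatty acids, averaged 4281 ± 296 units in CEBPE and 1754 ± 459.7 units in CEBPD (log2 difference 1.32 ± 0.22, adjusted p = 7.69e-04), and its dimmer probe set was not called (0.71, adjusted p = 0.0776). Igfbp4, a carrier that holds insulin-like growth factors, read 4923, 3459 and 2349.6 units in CEBPE and 1767, 439 and 807 units in CEBPD (log2 difference 1.999 ± 0.52, adjusted p = 0.0233), with an uncalled second probe set (0.50). Igfbp4 lost its call without CEBPE array 1 or 2 or CEBPD array 2 or 3 (adjusted p up to 0.115) and under 2 of 14 other settings (up to 0.109). Rara, the retinoic acid receptor alpha, read 929.5, 1132 and 1537 units in CEBPE, 696, 231 and 582 units in CEBPD and 902, 482 and 943 units in vector (log2 difference 1.37 ± 0.40, adjusted p = 0.046). CEBPE overlapped vector there, and CEBPD array 2 was the low value. Rara lost its call without CEBPE array 2 or 3 or CEBPD array 2 or 3 (adjusted p up to 0.18) and under 7 of 13 other settings (up to 0.13). Igkv14-111, an immunoglobulin light chain segment that fibroblasts are not known to use, averaged 5249 ± 987 units in CEBPE and 2396 ± 1359 units in CEBPD (log2 difference 1.26 ± 0.35, adjusted p = 0.034). Igkv14-111 lost its call without CEBPE array 1, 2 or 3 or CEBPD array 2 or 3 (adjusted p up to 0.173) and under 3 of 14 other settings (up to 0.133). Over the 14 largest rises the CEBPE minus CEBPD difference ran from 1.26 to 2.57, CEBPE minus vector from 0.66 to 3.29 and CEBPD minus vector from -0.95 to 0.98; these comparisons share arrays.

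Cholesterol synthesis had the highest median difference of the lists read. Its enzymes turn acetyl-CoA into mevalonate, squalene and sterols, and SREBP-2 is their common regulator. Of 16 genes tested, 10 rose, 0 fell and 6 were not called, where 4.07% of all genes rose. Their median difference was 0.64, against 0.08 over all genes. All 16 differences were above 0, and under quantile normalization, the scaling with the lowest value for this list, the median was 0.58. Nsdhl, which removes a carbon from the sterol ring system, read 12576, 14718 and 16587 units on the CEBPE arrays, 5523, 6048 and 5521 units on the CEBPD arrays and 3629, 4827 and 3940.1 units on the vector arrays. No CEBPE culture overlapped a CEBPD or vector culture (log2 difference 1.35 ± 0.14, adjusted p = 4.91e-06). Nsdhl averaged 11281.5 ± 1014 units with C/EBP alpha and 11958 ± 830 units with C/EBP beta, and CEBPE against these was not tested. Means of Mvd, Lss and Sqle with C/EBP alpha and beta also lay above their CEBPD means. A second Nsdhl probe set gave 1.14 (adjusted p = 2.0e-05), and another, brighter than that one, was not called (0.31, adjusted p = 0.238). Mvd, which makes isopentenyl diphosphate, read 2632, 3005 and 2871 units in CEBPE, 385, 1248 and 838 units in CEBPD and 359, 691 and 403 units in vector (log2 difference 1.94 ± 0.41, adjusted p = 0.00693). The CEBPD values for Mvd were themselves spread widely. Lss, which closes the sterol rings, averaged 7903 ± 1033 units in CEBPE and 3289 ± 57.5 units in CEBPD (log2 difference 1.26 ± 0.17, adjusted p = 1.11e-04). Sqle, the squalene epoxidase that is a slow step of the pathway, averaged 20478 ± 3199 units in CEBPE and 9147 ± 1083 units in CEBPD (log2 difference 1.16 ± 0.18, adjusted p = 4.36e-04). Fdps, Idi1, Hmgcs1, Ebp, Msmo1 and Fdft1 were the others that rose, and the smallest rise, of Fdft1, was 1.47-fold.

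The other metabolic lists held fewer calls. Of 18 fatty acid oxidation genes tested, 4 rose and 0 fell, with a median difference of 0.40. Over all genes 4.07% rose and 4.38% fell. Cpt1a, which carries long-chain fatty acids into mitochondria, averaged 10618 ± 947 units in CEBPE and 6167 ± 508 units in CEBPD (log2 difference 0.78 ± 0.14, adjusted p = 0.00206). Hadhb, a subunit of the mitochondrial trifunctional enzyme, rose by 1.66-fold, Etfb, an electron carrier, by 1.65-fold and Ech1, an enoyl-CoA isomerase, by 1.45-fold. A dimmer probe set of Etfb gave -0.34 (adjusted p = 0.438). Hadhb lost its call without CEBPD array 3 (adjusted p = 0.0562). Etfb lost its call without CEBPE array 2 or 3 or CEBPD array 1 or 3 (adjusted p up to 0.11) and under 3 of 14 other settings (up to 0.0682). Ech1 lost its call without CEBPE array 2 or 3 or CEBPD array 1, 2 or 3 (adjusted p up to 0.131) and under 2 of 14 other settings (up to 0.0784). Of the 4, Cpt1a alone kept its call in every setting run. Pfkl, the liver-type phosphofructokinase, averaged 19731 ± 2982 units in CEBPE and 9584 ± 676 units in CEBPD (log2 difference 1.03 ± 0.15, adjusted p = 2.61e-04), whereas Eno2, an enolase of neurons, averaged 2299 ± 382 units in CEBPE and 5262 ± 734 units in CEBPD (log2 difference -1.20 ± 0.14, adjusted p = 4.62e-05). Pdk1, which holds back pyruvate oxidation, rose by 1.55-fold. Pdk1 lost its call without CEBPE array 2 or 3 or CEBPD array 1 or 3 (adjusted p up to 0.178) and under 4 of 14 other settings (up to 0.105). The remaining 15 of 18 glycolysis genes were not called. Of 46 oxidative phosphorylation genes, Cox7b (1.44-fold) and Uqcrc1 (1.42-fold) rose and 44 were not called, which is close to the 4.07% of all genes that rose. Cox7b lost its call without CEBPE array 2 or 3 or CEBPD array 1, 2 or 3 (adjusted p up to 0.128) and under 1 of 14 other settings (up to 0.0651). Uqcrc1 lost its call without CEBPE array 1 or 2 or CEBPD array 2 or 3 (adjusted p up to 0.128) and under 2 of 14 other settings (up to 0.0615). Among 14 adipocyte genes, Fabp5, a fatty acid binding protein, rose (5183 ± 1051 units in CEBPE and 2293 ± 627 units in CEBPD; log2 difference 1.19 ± 0.22, adjusted p = 0.00216), as did Dgat1, a triglyceride-forming enzyme (1.64-fold). Dgat1 lost its call without CEBPE array 2 or 3 or CEBPD array 1, 2 or 3 (adjusted p up to 0.173) and under 4 of 14 other settings (up to 0.11). Fabp5 averaged 3296 ± 648 units in vector. Neither CEBPE minus vector (log2 difference 0.65, adjusted p = 0.0518) nor CEBPD minus vector (-0.54, adjusted p = 0.709) was called for it. A further 11 adipocyte genes were under the filter. Tfrc, the transferrin receptor, rose by 1.54-fold among 7 iron genes, but its dimmer probe set was not called (0.47, adjusted p = 0.209). Tfrc lost its call without CEBPE array 2 or CEBPD array 1 (adjusted p up to 0.0574) and under 1 of 14 other settings (up to 0.0664).

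The promoters of 2 of these rises are shown because they hold the motif TTGCNNAA that C/EBPs are known to bind. It stands here as its reverse complement, in capitals. The windows run from 250 bases before to 50 bases after the RefSeq start on GRCm38.p6, written 5′ to 3′ on the gene's strand. The Nsdhl window is chrX:72918271-72918570 (plus strand), and its capitals begin 19 bases before the start. The Slfn2 window is chr11:83064862-83065161 (plus strand), with capitals from 168 bases before the start.
Nsdhl: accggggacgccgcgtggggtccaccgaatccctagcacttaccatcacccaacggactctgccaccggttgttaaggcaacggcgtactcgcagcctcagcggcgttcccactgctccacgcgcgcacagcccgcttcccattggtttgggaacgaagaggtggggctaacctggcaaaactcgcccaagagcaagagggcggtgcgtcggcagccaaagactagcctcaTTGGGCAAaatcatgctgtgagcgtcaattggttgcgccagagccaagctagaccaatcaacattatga
Slfn2: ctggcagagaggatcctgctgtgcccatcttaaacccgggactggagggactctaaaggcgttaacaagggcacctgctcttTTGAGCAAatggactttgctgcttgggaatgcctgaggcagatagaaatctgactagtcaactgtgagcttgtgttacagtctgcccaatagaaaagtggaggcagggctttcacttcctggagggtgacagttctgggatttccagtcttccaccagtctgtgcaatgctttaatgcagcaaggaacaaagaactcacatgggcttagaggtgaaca

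The motif was found on either strand in 25 of 173 windows of genes that rose (14.5%) and in 23 of 192 windows of genes that fell (12.0%). The share was 462 of 4343 (10.6%) over tested genes with a window and 3547 of 32851 (10.8%) over all windows. Among the 14 largest rises 3 of 10 genes with a window held it (Apbb1ip, Slfn2 and Nsdhl), and among the 14 largest falls 1 of 12 (Procr). Because Fos, Dusp1 and related genes are known for the cyclic AMP response element, TGACGTCA was searched too, after the values were seen. It occurred in 7 of 192 windows of genes that fell (3.65%), 4 of 173 of genes that rose (2.31%), 149 of 4343 of tested genes (3.43%) and 588 of 32851 of all windows (1.79%). Among named genes it was found in Btg2, Zfand2a, Ppp1r15a and Dusp1. The last 2, which fell in CEBPE, are shown with the element in capitals, on the minus strand of GRCm38.p6 at chr17:26508423-26508722 (Dusp1, 143 bases before the start) and chr7:45526219-45526518 (Ppp1r15a, 12 bases before the start). The TTGCNNAA and TGACGTCA matches do not overlap in any of the 4 windows, each of which holds 1 match of 1 motif.
Dusp1: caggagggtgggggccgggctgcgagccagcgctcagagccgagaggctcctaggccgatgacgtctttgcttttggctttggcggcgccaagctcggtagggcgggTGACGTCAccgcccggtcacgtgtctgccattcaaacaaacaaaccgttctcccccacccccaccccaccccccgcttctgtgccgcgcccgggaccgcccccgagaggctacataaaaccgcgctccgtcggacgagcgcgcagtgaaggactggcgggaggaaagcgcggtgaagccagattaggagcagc
Ppp1r15a: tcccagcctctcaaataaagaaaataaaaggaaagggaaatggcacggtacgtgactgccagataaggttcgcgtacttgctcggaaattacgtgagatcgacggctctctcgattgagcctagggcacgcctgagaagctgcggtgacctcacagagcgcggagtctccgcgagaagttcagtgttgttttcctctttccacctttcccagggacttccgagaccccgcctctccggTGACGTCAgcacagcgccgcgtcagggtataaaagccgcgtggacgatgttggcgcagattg

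Extracellular and cell surface genes moved in both directions. Plaur, the urokinase receptor, read 3435, 3007 and 2529 units in CEBPE and 10367, 10664 and 10915 units in CEBPD (log2 difference -1.84 ± 0.15, adjusted p = 2.77e-07). Plat, tissue plasminogen activator, read 2234, 4330.1 and 3937 units in CEBPE and 9265, 11473 and 10382 units in CEBPD (log2 difference -1.62 ± 0.21, adjusted p = 9.40e-05). These were the 2 of 13 protease and inhibitor genes that fell, and 0 rose. For this and the following lists, 4.38% of all genes fell and 4.07% rose. Beside Dcn, the matrix genes Postn (periostin), Hspg2 (perlecan) and Matn2 rose (4; 2 without CEBPE array 2, CEBPD array 1 or CEBPD array 2) and Mfap5, a microfibril protein, fell, out of 26 tested. Mfap5 averaged 2199.6 ± 166 units in CEBPE and 4475 ± 112 units in CEBPD (log2 difference -1.03 ± 0.13, adjusted p = 6.54e-05), and Postn averaged 1427 ± 374 units in CEBPE and 665 ± 47.6 units in CEBPD (log2 difference 1.07 ± 0.20, adjusted p = 0.003). Hspg2 read 1966, 2401 and 1898 units in CEBPE, 661, 644 and 1827 units in CEBPD and 2012, 2254 and 2352 units in vector, so that CEBPD arrays 1 and 2 were the low values (log2 difference 1.18 ± 0.29, adjusted p = 0.0193). Postn lost its call with a fit on only the 2 groups compared (adjusted p = 0.0699) and the arrays numbered 1 left out in all 5 groups (adjusted p = 0.08). It averaged 1068 ± 178 units in vector. Neither CEBPE minus vector (log2 difference 0.39, adjusted p = 0.213) nor CEBPD minus vector (-0.67, adjusted p = 0.382) was called for Postn. Hspg2 lost its call without CEBPE array 2 or CEBPD array 1 or 2 (adjusted p up to 0.0952) and under 5 of 14 other settings (up to 0.141). Col3a1, a fibrillar collagen chain, averaged 2279 ± 405 units in CEBPE and 1017 ± 72.9 units in CEBPD (log2 difference 1.15 ± 0.21, adjusted p = 0.00169), with an uncalled dimmer probe set (0.55, adjusted p = 0.281). P4ha2, which hydroxylates collagen, fell by 0.48 on the log2 scale (0.04 in a dimmer probe set), and 17 of 19 collagen genes were not called. P4ha2 lost its call without CEBPE array 3 or CEBPD array 2 or 3 (adjusted p up to 0.0571) and under 1 of 14 other settings (up to 0.0822). Dcn and Col3a1 are also fibroblast markers, and without them the sum of the other 12 was 116386 to 147495 units in CEBPE and 111707 to 117314 units in CEBPD, which overlap. Acta2, smooth muscle actin, fell alone among 13 contractile genes, with 1067 ± 224 units in CEBPE and 2407 ± 352 units in CEBPD (log2 difference -1.18 ± 0.19, adjusted p = 6.89e-04). Cd68, a lysosomal protein of macrophages that other cells also make, averaged 1121 ± 43.1 units in CEBPE and 2811 ± 103 units in CEBPD (log2 difference -1.33 ± 0.15, adjusted p = 2.36e-05), and it was the 1 of 6 tested leukocyte markers that passed. Without Cd68 the sum of the other 10 on the array was 6331 to 7744 units in CEBPE and 7745 to 8680 units in CEBPD, so the CEBPE arrays all lay just under the CEBPD range or further below.

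Regulators of differentiation and signalling followed. Id3, Id2 and Id1, which hold basic helix-loop-helix factors off DNA, all fell. Id3 read 1426, 2222 and 1615 units in CEBPE and 4602, 6703 and 5000.5 units in CEBPD (log2 difference -1.64 ± 0.21, adjusted p = 7.51e-05). Id2 averaged 1941 ± 383 units in CEBPE and 4433 ± 509.6 units in CEBPD (log2 difference -1.21 ± 0.19, adjusted p = 5.59e-04), and Id1 averaged 4638 ± 194 units in CEBPE and 8153 ± 533 units in CEBPD (log2 difference -0.81 ± 0.12, adjusted p = 3.19e-04). Skil, a repressor of SMAD proteins, was the fourth of 16 Wnt, Notch and TGF-beta feedback genes that fell, with 301, 203 and 154 units in CEBPE and 1002, 1659.8 and 852 units in CEBPD (log2 difference -2.31 ± 0.57, adjusted p = 0.0184, 1 CEBPE array at the floor). Skil lost its call without CEBPE array 2 or 3 or CEBPD array 2 (adjusted p up to 0.0963) and under 2 of 13 other settings (up to 0.076). Although 4 fell and 0 rose, where 4.38% of all genes fell and 4.07% rose, the list's median was 0.16, above 0. Nr1d1, the clock repressor REV-ERB alpha, averaged 2381 ± 325 units in CEBPE and 5268 ± 314 units in CEBPD (log2 difference -1.15 ± 0.15, adjusted p = 7.19e-05) and was the 1 of 13 clock genes called.

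Growth factors and cytokines split between the factors. Igf2, insulin-like growth factor 2, read 764, 1287 and 1088 units on the CEBPE arrays, 3984, 6156 and 5343 units on the CEBPD arrays and 5311, 5959 and 5441 units on the vector arrays (log2 difference -2.31 ± 0.19, adjusted p = 3.89e-07). Hbegf, a ligand of the EGF receptor, read 2234, 2319.9 and 1902 units in CEBPE and 7786, 10499 and 8039.5 units in CEBPD (log2 difference -2.02 ± 0.15, adjusted p = 1.49e-07). For both, every CEBPE culture lay under every CEBPD and vector culture. Of 23 growth factor and receptor genes, 3 rose (Igfbp4, Vegfd and Fgf7) and 4 fell (Igf2, Hbegf, Kitl and Grn). For this and the following lists, 4.07% of all genes rose and 4.38% fell. Among 17 chemokine and interleukin genes, 4 rose (Cxcl5, Osmr, Cxcl1 and Tnfrsf1b) and 4 fell (Il11, Ccl8, Ccl9 and Ccl7); the count that fell was 1 without CEBPE array 3, CEBPD array 1 or CEBPD array 2, and 2 without CEBPE array 1 or CEBPD array 3. Il11, an interleukin-6 type cytokine, read 234, 198 and 157 units in CEBPE, 789.6, 928 and 922 units in CEBPD and 1343, 1511 and 1642 units in vector (log2 difference -2.09 ± 0.53, adjusted p = 0.0205, 1 CEBPE array at the floor). Il11 lost its call without CEBPE array 3 or CEBPD array 1, 2 or 3 (adjusted p up to 0.0854) and under 3 of 13 other settings (up to 0.214). Ccl8, a monocyte chemoattractant, averaged 3531 ± 558 units in CEBPE and 6893 ± 427 units in CEBPD (log2 difference -0.97 ± 0.13, adjusted p = 1.43e-04). Among 12 interferon-induced and schlafen genes, Isg15, a ubiquitin-like protein, read 214, 207 and 285 units in CEBPE and 1044, 1287 and 809 units in CEBPD (log2 difference -2.14 ± 0.45, adjusted p = 0.00689), while Ifi204, a DNA sensor of the same response, rose by 1.67-fold beside Slfn2, with an uncalled dimmer probe set (0.30). Isg15 lost its call with a floor at the 40th percentile (adjusted p = 0.124) and the arrays numbered 1 left out in all 5 groups (adjusted p = 0.0821). Ifi204 lost its call without CEBPE array 2 or 3 or CEBPD array 1 or 3 (adjusted p up to 0.167) and under 5 of 14 other settings (up to 0.114). B2m, the light chain of MHC class I, fell by 0.51 on the log2 scale. B2m lost its call without CEBPE array 1 or 3 or CEBPD array 1, 2 or 3 (adjusted p up to 0.165) and under 5 of 14 other settings (up to 0.166).

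Granulocyte genes gave few readings in these fibroblasts, although C/EBP epsilon is known for them. Of 35 listed granulocyte and myeloid genes 18 were under the signal filter and 11 were tested. Cd14, a co-receptor for bacterial lipopolysaccharide, was the 1 that passed, with 6699, 7677 and 7563 units in CEBPE, 3578, 2608 and 3764 units in CEBPD and 3086, 2287 and 3503 units in vector (log2 difference 1.16 ± 0.19, adjusted p = 6.26e-04). Every CEBPE culture held more of it than any CEBPD or vector culture. The list's median difference was 0.16, and over all genes 4.07% rose and 4.38% fell. Of 29 acute phase and innate defence genes, 15 were under the filter and 8 were tested, with Ptx3 higher and Hp lower in CEBPE.

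**Figure D4:**
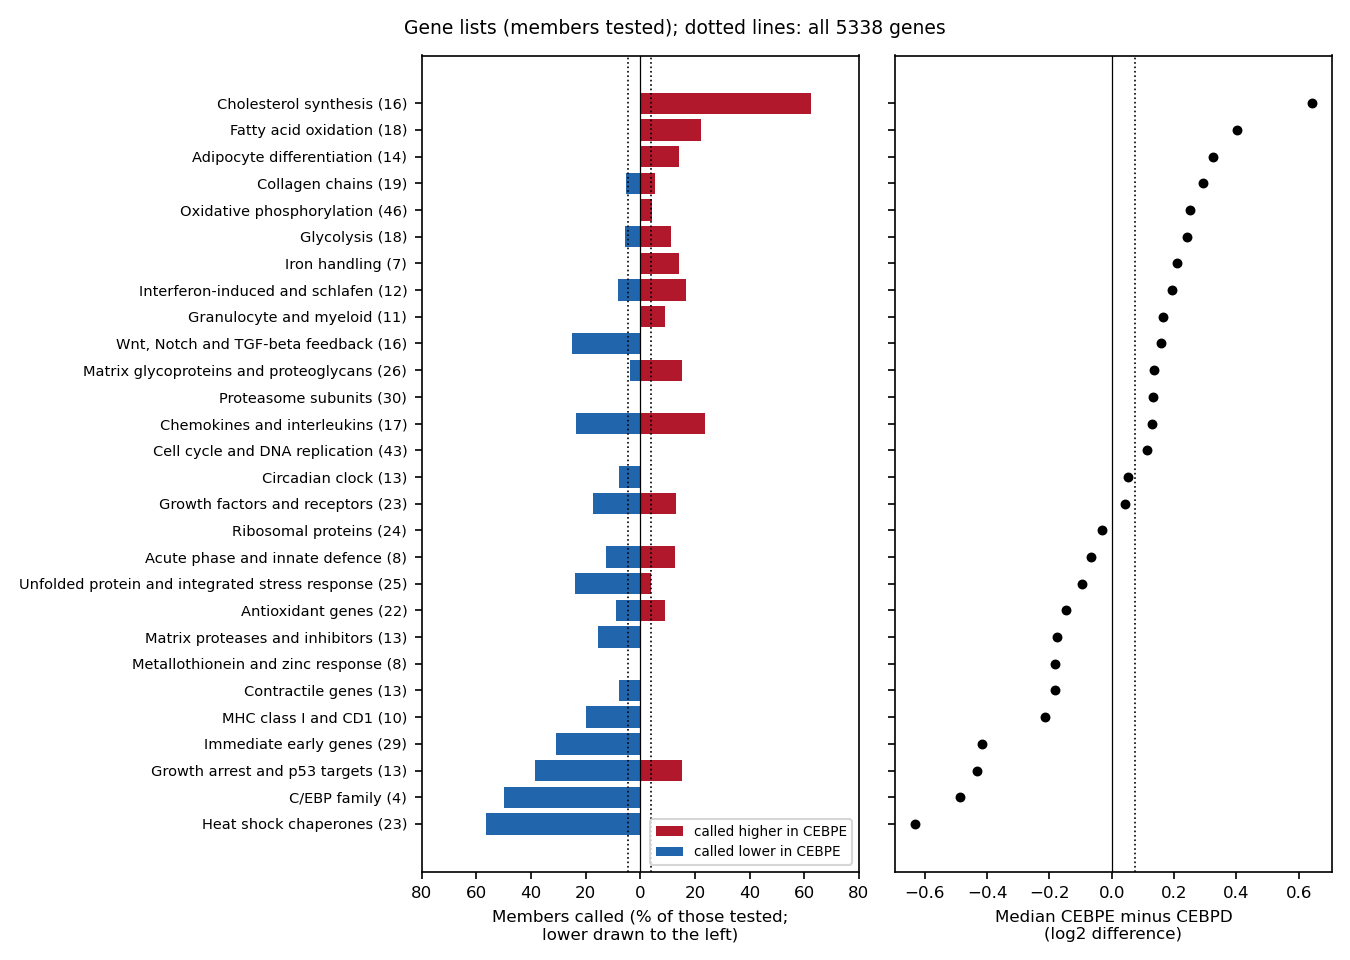
For each list, with the number of genes tested in brackets, the left panel gives the percentage called higher (red, to the right) and lower (blue, to the left) in CEBPE and the right panel the median CEBPE minus CEBPD difference in log2 units. Dotted lines mark all 5338 genes (4.07% higher, 4.38% lower, median 0.08); medians run from -0.63 for heat shock to 0.64 for cholesterol synthesis.

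Genes called in CEBPD against vector were then read in both factors. In CEBPD against vector 25 probe sets (0.359%) were called higher and 0 lower (0.00%) by limma, while 443 (6.36%) had an unadjusted p under 0.05. The count was 13 without CEBPD array 2. Read by their brightest probe set, 19 genes were called, and they were looked up after their values were seen. Of these, 6 kept that call in every setting (Hp, Cd1d1, Lpl, Cxcl5, Aldh3a1 and Fgf7). Under at least 1 alternative, but with no single array left out, 5 lost it (Ptx3, Ereg, Pcdh7, Glrx and Cxcl1). With CEBPD array 2 left out, 8 lost it (Xdh, Mgst1, Nus1, Hmgcs1, Plpp3, Osmr, H2-M2 and Cyb5a), 7 of them also without vector array 1, 6 without CEBPD array 3 and 5 without vector array 3 (adjusted p up to 0.293). These 8 also lost it under at least 1 alternative, up to an adjusted p of 0.881 for H2-M2 with a floor at the 40th percentile. CEBPE against CEBPD and CEBPD against vector share the CEBPD arrays. The 19 genes were picked as called higher in CEBPD than in vector, so CEBPD above vector in them is set by the choice. Hp, haptoglobin, an acute phase protein and a known C/EBP target, read 2236, 2578 and 2789 units in CEBPE, 4297, 5238 and 5909 units in CEBPD and 1769.5, 1164 and 1216 units in vector. Of these 3 groups CEBPD was highest and CEBPE lay between it and vector (CEBPE minus CEBPD log2 difference -1.02 ± 0.20, adjusted p = 0.00388, and CEBPD minus vector 1.91 ± 0.20, adjusted p = 1.09e-04). Cd1d1, which presents lipids to natural killer T cells, read 268, 548 and 583 units in CEBPE, 1372, 1392 and 1257 units in CEBPD and 129, 179 and 261 units in vector, 2 of the vector arrays being under the floor (CEBPE minus CEBPD log2 difference -1.60 ± 0.29, adjusted p = 0.0021). In CEBPE against CEBPD, Cd1d1 lost its call with the arrays numbered 1 left out in all 5 groups (adjusted p = 0.0552). Lpl, the lipase that frees fatty acids from lipoproteins, read 783, 1075 and 1218 units in CEBPE, 1594, 1998 and 1351 units in CEBPD and 223, 289 and 249 units in vector. Its CEBPE values lay under all CEBPD values, where 27.3% of all probe sets had no overlap of these arrays. The difference was not called (log2 difference -0.69 ± 0.23, adjusted p = 0.0701). A dimmer probe set of Lpl was not called either (-0.28, adjusted p = 0.625).

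Cxcl5, a neutrophil attractant, read 11961, 12827 and 11689.6 units in CEBPE, 5135, 6478 and 6494 units in CEBPD and 2667, 2552 and 2075 units in vector. CEBPE was highest, with no overlap, and CEBPD lay above vector as the choice of the genes sets it (CEBPE minus CEBPD log2 difference 1.02 ± 0.13, adjusted p = 7.51e-05, and CEBPD minus vector 1.31 ± 0.13, adjusted p = 7.48e-05). Aldh3a1, an aldehyde dehydrogenase, read 4896, 5339 and 5269 units in CEBPE, 2282, 2261 and 2378 units in CEBPD and 849, 815 and 1007 units in vector (CEBPE minus CEBPD log2 difference 1.16 ± 0.16, adjusted p = 1.18e-04). Fgf7, keratinocyte growth factor, averaged 5851 ± 554 units in CEBPE, 3032 ± 453 units in CEBPD and 1227 ± 46 units in vector (CEBPE minus CEBPD log2 difference 0.95 ± 0.15, adjusted p = 6.17e-04).

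Osmr, the oncostatin M receptor, averaged 9106 ± 1509 units in CEBPE, 4674 ± 764 units in CEBPD and 2681 ± 332 units in vector (CEBPE minus CEBPD log2 difference 0.96 ± 0.16, adjusted p = 8.17e-04). Glrx, glutaredoxin, averaged 7389 ± 897 units in CEBPE, 3555 ± 212 units in CEBPD and 1903 ± 309 units in vector (CEBPE minus CEBPD log2 difference 1.05 ± 0.14, adjusted p = 1.43e-04). For both, no arrays of the 3 groups overlapped, where CEBPD above vector is set by the choice of the genes. Hmgcs1, an early enzyme of the cholesterol pathway, averaged 15569 ± 756 units in CEBPE, 9234 ± 453 units in CEBPD and 5900.3 ± 413 units in vector (CEBPE minus CEBPD log2 difference 0.75 ± 0.12, adjusted p = 4.24e-04). Nus1, a subunit of dolichol synthesis, averaged 5853 ± 759 units in CEBPE, 3493 ± 189 units in CEBPD and 2021 ± 274 units in vector (CEBPE minus CEBPD log2 difference 0.74 ± 0.14, adjusted p = 0.00266). Their 3 groups were likewise apart, with CEBPE highest. Ptx3, a soluble pattern receptor, averaged 16576 ± 2768 units in CEBPE, 9677 ± 1919 units in CEBPD and 3944 ± 602 units in vector and was 1.72-fold higher in CEBPE than in CEBPD. Xdh, xanthine dehydrogenase, averaged 9306 ± 1345 units in CEBPE, 5670.2 ± 1216 units in CEBPD and 2442 ± 418 units in vector and was 1.65-fold higher. Cxcl1, a neutrophil attractant, averaged 17542 ± 1136 units in CEBPE, 11074 ± 1054 units in CEBPD and 5929 ± 92.6 units in vector and was 1.59-fold higher, with a dimmer probe set that was not called (0.50, adjusted p = 0.0507). These 3 calls in CEBPE against CEBPD depended on the setting. Ptx3 lost its call without CEBPE array 2 or 3 or CEBPD array 2 or 3 (adjusted p up to 0.102) and under 2 of 14 other settings (up to 0.070). Xdh lost its call without CEBPE array 2 or 3 or CEBPD array 1 or 3 (adjusted p up to 0.15) and under 3 of 14 other settings (up to 0.108). Cxcl1 lost its call with the arrays numbered 1 left out in all 5 groups (adjusted p = 0.069).

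The remaining genes were not called in CEBPE against CEBPD. Ereg, an EGF receptor ligand, had signals of 3614, 4088 and 3700.0 units in CEBPE, 2428, 2658 and 2414 units in CEBPD and 779.7, 1243 and 640.4 units in vector. H2-M2, a class I-like gene, averaged 1543 ± 212 units in CEBPE, 968 ± 319.5 units in CEBPD and 256 ± 38.6 units in vector. Pcdh7, a protocadherin, averaged 3219 ± 190.5 units in CEBPE, 2338 ± 241 units in CEBPD and 1031 ± 169.7 units in vector. For these 3 every CEBPE culture lay above every CEBPD culture. Over all probe sets, 27.3% had CEBPE and CEBPD arrays that did not overlap, in either direction. Plpp3, a lipid phosphatase, averaged 2647 ± 403 units in CEBPE, 3902 ± 635 units in CEBPD and 2071 ± 416 units in vector, and here every CEBPE culture lay under every CEBPD culture. Mgst1, a microsomal glutathione transferase, averaged 3049 ± 216 units in CEBPE, 3298 ± 417 units in CEBPD and 1862 ± 206 units in vector. Cyb5a, a carrier of electrons to lipid enzymes, averaged 10779.8 ± 1623 units in CEBPE, 10598 ± 1562 units in CEBPD and 6082 ± 691 units in vector, with the smallest CEBPE minus CEBPD difference of these genes (0.03 ± 0.16 on the log2 scale). CEBPE and CEBPD overlapped for Mgst1 and Cyb5a.

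**Figure D5:**
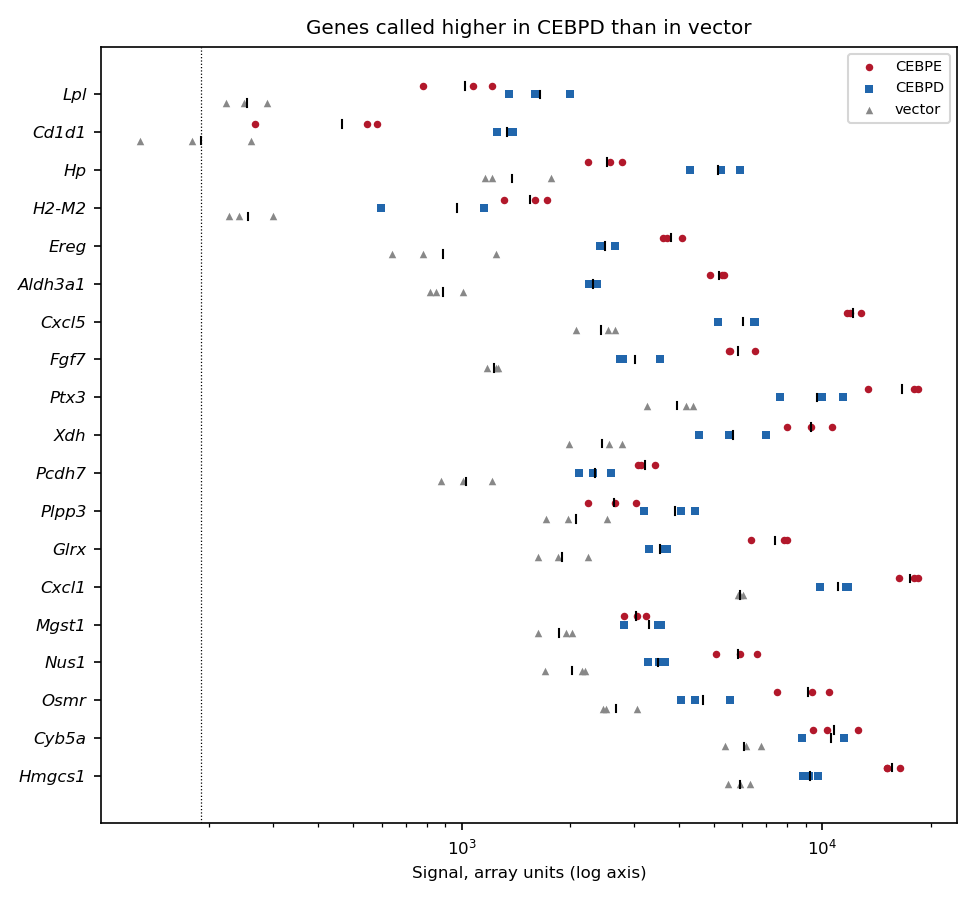
Signal on a log axis (array units) of the 19 genes called higher in CEBPD than in vector, with red circles for CEBPE, blue squares for CEBPD and grey triangles for vector; bars are means over 3 arrays and the dotted line is the floor of 189.652 units. For Hp and Cd1d1 the blue points lie to the right of the red ones, and for Cxcl5 and Aldh3a1 the red points lie to the right.

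Genes of basic growth gave no calls at an adjusted p of 0.05 or less, where 4.07% of all genes rose and 4.38% fell. The share of all genes at an unadjusted p under 0.05 is not given here, so counts at that p have no level beside them. Of 43 cell cycle and DNA replication genes 0 were called by limma, with 6 higher and 3 lower at an unadjusted p under 0.05. Tk1, thymidine kinase, came nearest (5815 ± 381 units in CEBPE and 4311 ± 403 units in CEBPD; log2 difference 0.43 ± 0.14, adjusted p = 0.0596), followed by Cenpa, the centromere histone (log2 difference 0.44 ± 0.17, adjusted p = 0.122). Of 24 ribosomal protein genes 0 were called and 0 had an unadjusted p under 0.05, with differences from -0.20 to 0.28. Rps4x averaged 73042 ± 10889 units in CEBPE and 83245 ± 5697 units in CEBPD and Rpl37a averaged 29861 ± 2446 units in CEBPE and 26432 ± 1343 units in CEBPD. Of 30 proteasome genes 0 were called and 2, Psmd7 (log2 difference 0.53 ± 0.20, adjusted p = 0.131) and Psme1 (log2 difference 0.47 ± 0.21, adjusted p = 0.204), were higher at an unadjusted p under 0.05. Across the alternatives up to 4 cell cycle genes were called higher and 2 lower, and up to 1 ribosomal and 2 proteasome genes were called higher.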

How the data were processed

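RNA from 15 cultures was hybridised to Affymetrix MG_74Av2 arrays, 3 per group in 5 groups. Per the labels, the authors scanned the arrays and made 1 linear intensity per probe set with Affymetrix Microarray Suite 5.0; the 2% trimmed mean of these values was 2489.45 to 2493.71 units on every array, so the deposited intensities were already scaled to a common mean. Values ran from 0.5 to 256543.7 units. No detection calls come with them, so the absence filter that the labels describe was replaced by a signal filter, and precision is set by how few arrays each group has.

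The 66 control probe sets among 12488 were dropped. Arrays were rescaled so that all share the mean of the 15 medians. Before log2 transformation, a floor was set at the 20th percentile of all values (189.652 units). Testing was limited to the 6963 probe sets above the overall median of 1092.06 units on 3 or more arrays. limma 3.58.1 in R 4.3.3 was fitted to all 15 arrays, with 1 coefficient per group and a trended prior. Its moderated test was two-sided, with Benjamini-Hochberg adjustment within a contrast and a threshold of 0.05, and errors of log2 differences are standard errors of that fit. The procedure was tested on simulated data with known changes.

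Symbols came from the platform annotation, in which 10833 probe sets name 1 gene, 396 several and 1193 none; 10817 were matched to RefSeq by gene ID. A gene is read by its brightest tested probe set. Named genes are the 14 largest rises and 14 largest falls among genes called with no overlap of arrays, the measured C/EBP genes, and up to 4 called members of each list (the 2 with the smallest p where none was called). Further members appear where a sentence gives every call of a list, and were named after their values were seen. The comparison, the lists and the members were chosen with earlier results of these data known. Lists are described by counts and medians, with no test. Promoter sequences are those of RefSeq on GRCm38.p6. Alternatives covered the scaling, the floor, the filter, the variance model, the arrays fitted, a block by array number and leaving out each array.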

Additional observations from a re-analysis of the deposited data

How the results depend on the processing

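CEBPE against CEBPD called 572 probe sets, 265 higher and 307 lower. Array weights gave 1506, 814 and 692, and leaving out the arrays numbered 1 in all 5 groups gave 365 and 158 in all and higher. Leaving out 1 CEBPE or CEBPD array at a time gave 342 to 591 in all, 113 to 311 higher and 204 to 301 lower. CEBPE against vector called 1134: array weights gave 1730, a fit on only those 2 groups 690, no arrays numbered 1 693, and single arrays left out 750 to 1153. CEBPD against vector called 25: quantile normalization gave 39, array weights 74, a fit on only those 2 groups 15, no arrays numbered 1 11, and single arrays left out 13 to 29. The cause of these shifts was not tested. The share called higher was 46.3% and ran from 27.3% without CEBPE replicate 2 to 54.1% with array weights.

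Array numbers were checked as a possible pairing. Deviations of same-numbered CEBPE and CEBPD arrays correlated at 0.354, 0.383 and 0.099, so 1 of the 3 fell short of 0.1. The numbers were not taken as pairs, and the main fit leaves them out. Each CEBPE and CEBPD array still correlated best with its own number in the other group. Each also correlated best with the same-numbered vector array (0.361, 0.373 and 0.041 for CEBPE, 0.283, 0.342 and 0.029 for CEBPD). Vector array 3, however, correlated better with array 1 of CEBPE (0.067) and of CEBPD (0.09). This pattern by array number is a hint from the data and not the design. With the replicate block 1037 probe sets were called, 554 higher and 483 lower, including all 572, and 44 in CEBPD against vector.

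Of 89 named genes called, 64 kept their call and direction in every setting and 25 lost it in at least 1. The sign turned in 4 genes that were not called. Cebpd (0.01485) gave -0.03246 under quantile normalization, -0.01823 on the deposited scale, -0.03592 by median ratio, -0.06605 with array weights, -0.02938 without arrays numbered 1, and -0.1497 to 0.1463 with single arrays left out. Cyb5a (0.02513) gave -0.03062, -0.007957, -0.02565, -0.06024, -0.01303 and -0.1039 to 0.116 under the same settings. Mt1 (-0.09686) gave 0.05603 under quantile normalization, 0.02603 with array weights, 0.1013 without arrays numbered 1 and -0.1956 to 0.09344 with single arrays left out. Cebpb (-0.1125) gave 0.02275 without arrays numbered 1 and -0.2945 to 0.2047 with single arrays left out. Signals near the floor limit Vwf, Trib3, Fam117a, Tnfaip6, Skil and Il11, for which 1 or more CEBPE arrays lay under it.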
